A study of Mus musculus with 12 samples.

Results

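The genes described here make up the protein folding machinery of the endoplasmic reticulum (ER) and the unfolded protein response (UPR) that tunes it. They were chosen by name, as 39 of the 35241 gene symbols measured in mouse distal colon. All 39 had an entry, and all 39 passed the filter of a mean of at least 0.5 that left 15880 genes for testing. Full-thickness distal colon was taken from 12 mice, and RNA was sequenced mouse by mouse. Spry2IEKO mice (Vil1::Cre;Spry2-f/f, n = 6) carry Cre under the villin promoter, which deletes Sprouty2 in the intestinal epithelium and leaves other cells of the gut wall with the gene. Spry2FF mice (Spry2-f/f, n = 6) carry the same floxed alleles without Cre. Each of 2 litters, A and B, gave 3 mice of each genotype, and the Spry2FF group held 3 males and the Spry2IEKO group 1. The labels give rearing to 6 weeks and collection at 8 weeks, without treatment. Values are TPM, a share of all transcripts corrected for length, that the authors scaled again between mice, summed here over the transcripts of a gene and called normalized TPM. Each mouse summed to between 918816 and 1069160 normalized TPM. Read depth is not part of these values, so no counting error can be given.

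Spry2, the targeted gene, lay between 18.5 and 22.5 in Spry2IEKO mice and between 22.8 and 32.3 in Spry2FF mice (two-sided exact permutation p = 0.00216, which is the smallest for 6 mice against 6). Epcam, which marks epithelium, was between 924 and 1162 in the 12 mice. Since the tissue was homogenized whole, fewer cells of a type and less RNA per cell cannot be told apart in any value below.

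Proteins that a cell secretes or places in its membranes are folded in the ER, where chaperones, lectins and disulfide isomerases act on the growing chain. When unfolded chains pile up, the sensors IRE1 (alpha form, Ern1, and the beta form of mucosal epithelium, Ern2), ATF6 (Atf6) and PERK (Eif2ak3) switch on the UPR. IRE1 splices the mRNA of the transcription factor XBP1, ATF6 is cut in the Golgi to free a transcription factor, and PERK slows translation while favouring that of ATF4. Their targets include chaperones, degradation factors and the translocation machinery. Goblet cells of the colon fill their granules with the large mucin MUC2 and therefore carry a heavy folding load, as do plasma cells with immunoglobulin.

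The ER stress response element (ERSE) is the sequence through which ATF6, together with the CCAAT-binding factor NF-Y, acts on chaperone genes. It reads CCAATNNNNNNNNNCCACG and was searched on both strands of RefSeq promoters (build GRCm38.p6), 250 bases before to 50 bases after a start site. The table held a promoter for 31 of the 39 genes. An ERSE stood in 9 of those 31 genes (29%), against 0.119% of the 32851 promoters in the table (39 promoters). The 9 genes were Calr, Hsp90b1, Hspa5, Canx, Pdia6, Dnajc3, Creld2, Syvn1 and Derl3. The shorter ERSE-II, ATTGG and CCACG with 1 base of any kind between them, was found in Herpud1 and Dnajb11 (6.45% of the 31, and 0.0365% of all promoters). The core of the UPR element, TGACGTGG, was found in Sec24d alone (3.23% of the 31, and 0.676% of all promoters). The elements share letters, since ERSE and ERSE-II both end in CCACG and TGACGTGG ends in CGTGG, its complement. The parts were common by themselves, since CCAAT alone stood in 37.4% and CCACG alone in 32.8% of all promoters. The share of the 31 counts genes, while that of the whole table counts promoters. Since the 39 genes were chosen by name as folding and UPR genes, on which these elements act, the shares are not a test. These matches are descriptions of sequence, and binding was not measured.

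The stretches holding the ERSE in the 6 most abundant of these genes are printed below to show how the elements differ, written 5′ to 3′ along the gene with the CCAAT and CCACG parts of the element in capitals and 10 bases on either side. Where the capitals read CGTGG and then ATTGG, the element lies on the opposite strand. The Calr stretch is chr8:84847065-84847103 on the minus strand, that of Hsp90b1 chr10:86705523-86705666 on the minus strand, that of Hspa5 chr2:34772015-34772053 on the plus strand, that of Canx chr11:50325790-50325828 on the minus strand, that of Pdia6 chr12:17266481-17266519 on the plus strand and that of Dnajc3 chr14:118937817-118937855 on the plus strand.
Calr: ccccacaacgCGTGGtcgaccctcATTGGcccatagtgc
Hsp90b1: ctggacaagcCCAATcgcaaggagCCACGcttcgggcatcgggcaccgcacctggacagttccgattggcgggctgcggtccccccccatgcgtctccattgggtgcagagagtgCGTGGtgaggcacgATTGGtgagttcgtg
Hspa5: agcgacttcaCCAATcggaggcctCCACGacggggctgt
Canx: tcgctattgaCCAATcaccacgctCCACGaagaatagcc
Pdia6: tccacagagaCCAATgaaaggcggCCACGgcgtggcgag
Dnajc3: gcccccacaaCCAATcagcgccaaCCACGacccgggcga
Hsp90b1 held 2 copies in opposite directions, and each of the other 5 held 1. The spacer of 9 bases between the capitals differed from gene to gene. In Hspa5 the element began 65 bases before the start site, nearer than in the other 5 genes shown, and in Hsp90b1 the far copy began 212 bases before it.

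**Figure D1:**
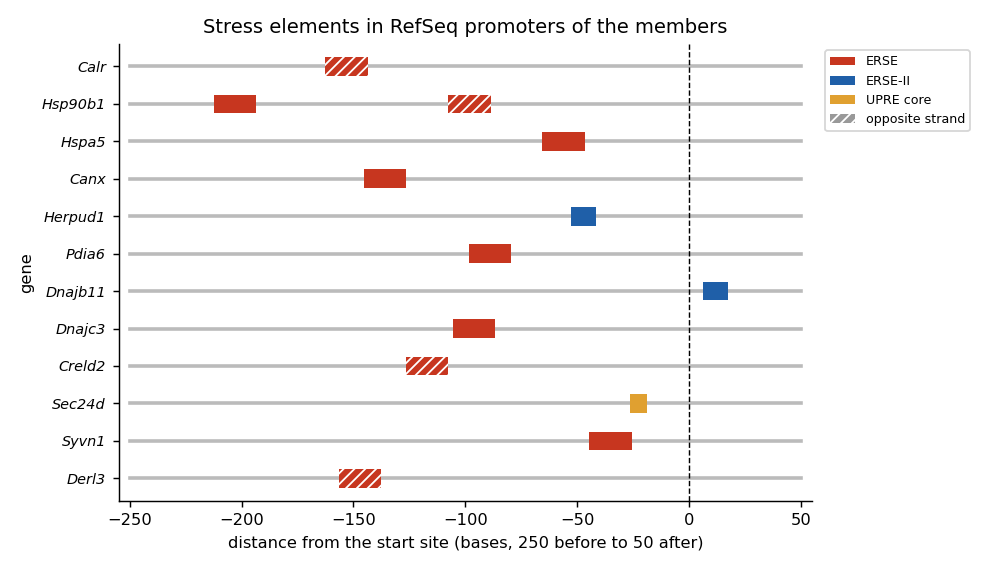
Position of the ERSE, ERSE-II and UPRE core in the RefSeq promoters of the 12 genes that hold 1 of them; the horizontal axis is the distance in bases from the start site (dashed line), each grey line is 1 promoter, and hatched bars lie on the opposite strand. The ERSE copies lie upstream of the start site, while the ERSE-II of Dnajb11 begins 7 bases after it.

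Xbp1 mRNA carries the site that IRE1 cuts at 2 stem-loops, which removes 26 bases and shifts the reading frame. The site is printed with its loops in capitals, as it stands in the GENCODE M21 transcripts: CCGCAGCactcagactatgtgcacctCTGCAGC. Of 4 Xbp1 transcripts in the annotation, 3 held the uncut site and none held the joined form that IRE1 leaves. Those 3 made up 91.3% of the Xbp1 value, and the remaining transcript is annotated as a retained intron. The Xbp1 values below therefore do not separate spliced from unspliced mRNA.

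In level, the sensors stood low in the group. Ern2 (IRE1 beta, specific to mucosal epithelium) was at 37.4 ± 6.58 normalized TPM (SD, n = 12 mice, as for the levels that follow) and Ern1 (IRE1 alpha, present in most cells) at 12.3 ± 1.59. Atf6 was at 19.3 ± 2.53 and Eif2ak3, which encodes PERK, at 17.5 ± 3.07. Ern2 was above Ern1 in each of the 12 mice, and their ranges of 29.4 to 48.4 and 9.76 to 15.3 did not overlap. These are levels per length, so genes can be set side by side.

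Among the transcription factors, Xbp1 led at 183 ± 23.0, followed by Atf4, the factor downstream of PERK, at 115 ± 12.4. Creb3l1, a membrane-bound factor processed like ATF6, was at 108 ± 16.0, and its relative Creb3l4 at 29.4 ± 7.83. Ddit3, which encodes the pro-apoptotic factor CHOP, was at 32.7 ± 11.2, with a coefficient of variation of 34.1%. Ddit3 has 2 overlapping Ensembl records, and the transcript of the second record was listed at 0 in 9 mice and at 27.9, 13.1 and 2.93 in Spry2FF 13, Spry2IEKO 4 and Spry2FF 3. Without that transcript, a choice made after the values were seen, the coefficient of variation of Ddit3 was 18.4% and its range 22.6 to 41.0.

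Among the chaperones, Hsp90b1 (GRP94, the HSP90 of the ER) was at 297 ± 49.8 and Hspa5 (BiP, the HSP70 that also holds the sensors inactive) at 265 ± 42.5. Hyou1, a nucleotide exchange factor for BiP, was at 32.4 ± 5.96. The J-domain partners of BiP ran from 85.5 ± 7.54 for Dnajb11 through 44.7 ± 5.37 for Dnajc3 to 36.6 ± 4.72 for Dnajb9. Manf, a secreted protein retained by BiP, was at 142 ± 21.2, Creld2, a disulfide isomerase that the UPR induces, at 32.8 ± 4.07 and Sdf2l1, a partner of the J-domain protein Dnajb11, at 26.2 ± 4.02.

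The lectin chaperones that hold glycoproteins were calreticulin (Calr), the most abundant of the 39 at 478 ± 53.7, and calnexin (Canx) at 195 ± 21.7. Of the disulfide isomerases, Pdia3, which works with both lectins, was at 347 ± 35.9, P4hb at 264 ± 19.5, Pdia6 at 98.7 ± 15.4, Pdia4 at 80.3 ± 12.4 and Pdia5 at 38.9 ± 8.17. P4hb varied least among them, with a coefficient of variation of 7.39%, and Pdia5 most.

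In the degradation branch (ERAD), which pulls misfolded chains back to the cytosol, Herpud1 was at 176 ± 17.9 and Edem1, which selects glycoproteins for disposal, at 68.8 ± 9.46. The ubiquitin ligase Syvn1 was at 17.99 ± 2.48 and its partner Sel1l at 34.9 ± 4.11. The derlins differed widely, with Derl1 at 49.7 ± 2.79, Derl2 at 28.7 ± 2.16 and Derl3 at 1.51 ± 0.574. Derl3, a derlin of cells with heavy secretion such as plasma cells, was the lowest of the 39. Among the genes of entry and exit were the translocon subunits Sec61b at 145 ± 15.9 and Sec61a1 at 82.8 ± 8.58, the translocon-associated Ssr2 at 161 ± 14.5, Ssr3 at 129.7 ± 12.2 and Ssr1 at 40.2 ± 6.81, and the signal peptidase subunit Spcs1 at 169 ± 19.3. Sec24d, a cargo receptor of the COPII coat that leaves the ER, was at 26.8 ± 3.90.

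Ordered by mean level, neighbouring genes overlapped in their ranges over the 12 mice except at 3 steps, between P4hb and Canx, between Edem1 and Derl1, and between Ern1 and Derl3. Among the levels of all genes tested, the 39 lay between the percentiles 14.9 (Derl3) and 98.3 (Calr). Their sum ran from 3402 normalized TPM in Spry2IEKO 8 to 4825 in Spry2IEKO 4, which are mice of the same genotype.

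Single mice stood out across many of the genes at once. Spry2IEKO 4, a female of litter A, had the highest value of 16 of the 39 genes (41.0%), and the highest value of 15.9% of all genes tested. Spry2IEKO 8 had the lowest value of 17 (43.6%, against 11.4% of all genes) and Spry2FF 9 of 10 (25.6%, against 10.8%). Both of the latter were males of litter B. A further 7 were lowest in Spry2IEKO 12 (17.9%, against 19.97% of all genes). Spry2IEKO 4 also had the highest sum of 13 plasma cell markers other than Derl3 (6031, against 510 to 2526 in the other 11 mice), and the highest sum of goblet cell markers (19335, against 8524 to 18929.5). The next highest goblet sum, 18929.5, was in Spry2IEKO 12. Its 39 genes summed to 4111, beside a median of 4139 over the 12 mice. Spry2IEKO 8 had the highest sum of smooth muscle markers (9691, against 3771 to 8246), and its sum of epithelial markers, 11159, was within the range of the others. Adipocyte markers summed to 1132 in Spry2IEKO 5 and 617 in Spry2IEKO 4, against 20.8 to 113 in the other 10 mice. The part of these cell types in the members' values was not tested.

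**Figure D2:**
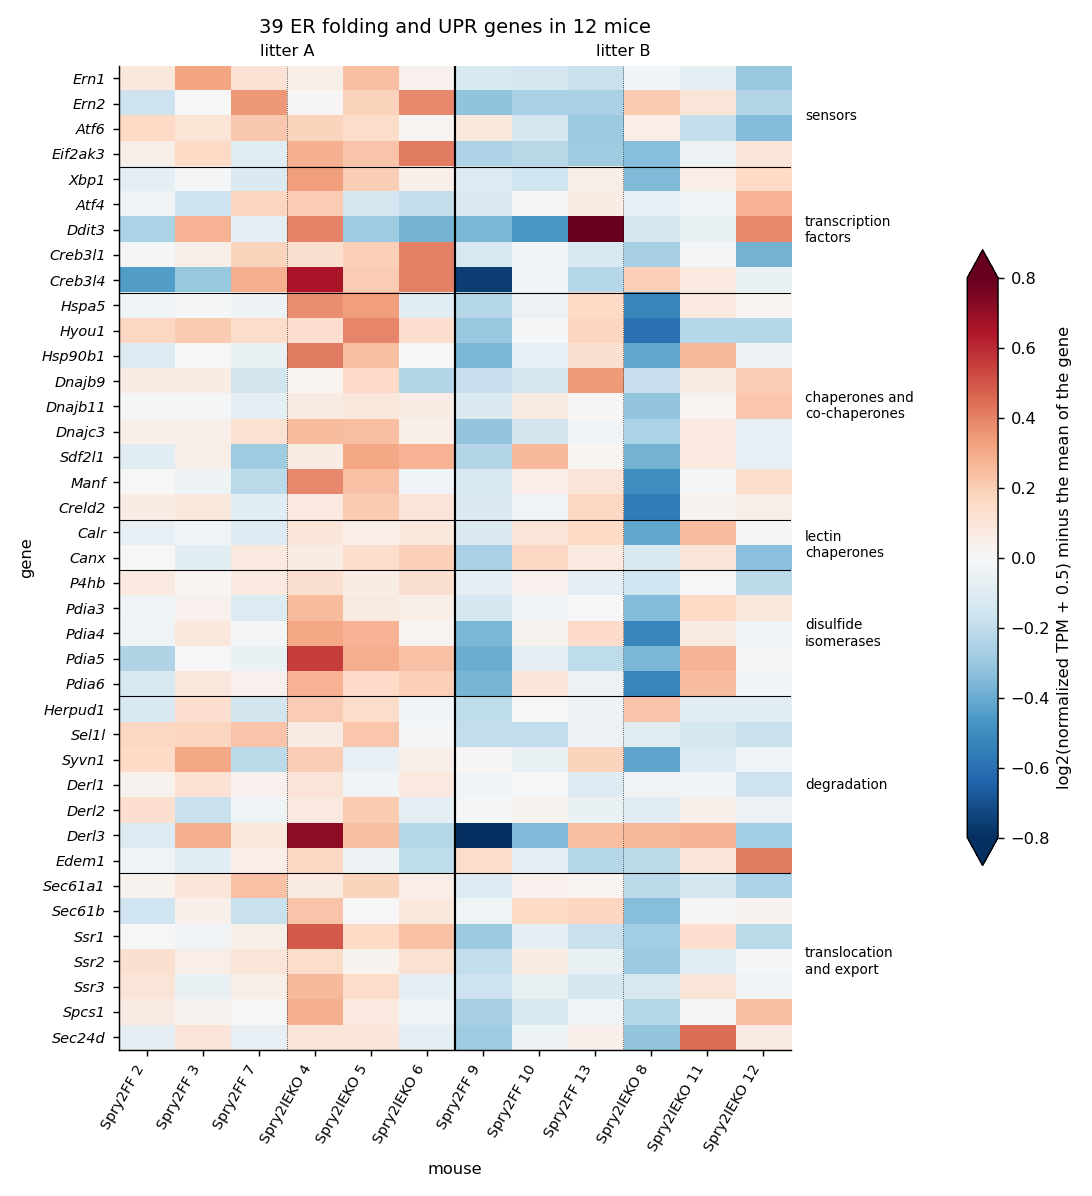
Each cell is the level of 1 gene (row) in 1 mouse (column), as log2(normalized TPM + 0.5) minus the mean of that gene over the 12 mice, from blue (lower) to red (higher); colours are capped at 0.8 either way, the thick line separates the litters and dotted lines the genotypes. Spry2IEKO 4 is red in most rows, Spry2IEKO 8 and Spry2FF 9 are blue in most rows, and the Ern1 row is red throughout litter A and blue throughout litter B.

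The study asked what epithelial loss of Sprouty2 does to the cells of the crypt, goblet cells among them, and the first comparison set the folding machinery of the genotypes side by side. None of the 39 genes passed an adjusted p of 0.05 between Spry2IEKO and Spry2FF mice (limma on log2(normalized TPM + 0.5), two-sided), beside 0.0315% of all genes tested. At an unadjusted p under 0.05, 2 of 39 (5.13%) were higher in Spry2IEKO mice, beside 3% of all genes in that direction, and none were lower, beside 3.17%. An exact permutation test of each gene called no gene at all after adjustment. Its smallest p, 0.00216, is too large to pass over 15880 genes unless many genes reach it, so it cannot decide on single members. The log2 fold change was above 0 for 28 and below 0 for 11 of the 39, with a median of 0.0456 beside 0.00756 for all genes. With sex as a covariate 19 were above and 20 below 0, with the same total in each mouse 22 and 17, in litter B alone or without Spry2IEKO 4 21 and 18, and without Spry2FF 9 22 and 17. The split was wider in females alone, with 33 above and 6 below 0. It was also wider without Spry2IEKO 8 (32 and 7), without Spry2FF 13 (30 and 9) and in litter A alone (29 and 10). The median ran from -0.00754 with sex as a covariate to 0.11 without Spry2IEKO 8. In no member did the 6 mice of a genotype lie wholly above the other 6, beside 0.403% of all genes. Goblet cell markers had a log2 fold change above 0 in 14 of 15 (median 0.44, none called by limma) and summed to 8524 to 12920 in Spry2FF and 10078 to 19335 in Spry2IEKO mice. Plasma cell markers were above 0 in 12 of 14 (median 0.47, none called) and summed to 511 to 2178 and 669 to 6034. Both lists hold folding genes themselves, Agr2 for goblet cells, and Txndc5, Fkbp11 and the member Derl3 for plasma cells. The part of these cells in the values of the folding genes was not tested.

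Creb3l4 (ENSMUSG00000027938, chr3:90237500-90243512; positions are those of GENCODE M21 on GRCm38) had the lowest p of the 39. It ran from 16.6 to 34.8 with a median of 23.6 in Spry2FF mice and from 27.3 to 44.9 with a median of 32.7 in Spry2IEKO mice, so that the groups overlapped. Its log2 fold change was 0.49 (SE 0.163, limma adjusted p = 0.692), and litters A and B taken alone gave 0.57 and 0.41. Over all alternatives other than leaving out a mouse it ran from 0.24 to 0.57 and passed in none. The disulfide isomerase gene Pdia5 (ENSMUSG00000022844, chr16:35397312-35490873) was at 34.2 ± 3.46 (SD, n = 6) in Spry2FF mice and 43.6 ± 9.06 (SD, n = 6) in Spry2IEKO mice. It ran from 28.9 to 38.0 with a median of 34.7 in the former and from 29.5 to 56.3 with a median of 45.6 in the latter, where Spry2IEKO 8 at 29.5 and Spry2IEKO 12 at 37.8 stood within the range of the Spry2FF mice. The log2 fold change of Pdia5 was 0.32 (SE 0.132, limma adjusted p = 0.753).

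No sensor passed between genotypes. Ern2 (ENSMUSG00000030866, chr7:122169893-122186207) ran from 29.4 to 47.0 with a median of 31.8 in Spry2FF and from 31.3 to 48.4 with a median of 40.8 in Spry2IEKO mice, a log2 fold change of 0.22 (SE 0.124, limma adjusted p = 0.837). Eif2ak3 (ENSMUSG00000031668, chr6:70844515-70905245) ran from 14.1 to 19.3 with a median of 15.4 in Spry2FF and from 13.5 to 23.1 with a median of 19.3 in Spry2IEKO mice, with a log2 fold change of 0.21 (SE 0.127, limma adjusted p = 0.840). The other two sensors had log2 fold changes of -0.03 for Ern1 and -0.05 for Atf6, with 95% intervals of -0.27 to 0.21 and -0.29 to 0.20. Herpud1 (ENSMUSG00000031770, chr8:94386438-94395377), an ERAD scaffold that the UPR induces, ran from 152 to 192 with a median of 166 in Spry2FF and from 164 to 205 with a median of 183 in Spry2IEKO mice, with a log2 fold change of 0.12 (SE 0.0778, limma adjusted p = 0.842).

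By role, the groups had median log2 fold changes of 0.09 for the 4 sensors, 0.02 for the 5 transcription factors, 0.06 for the 9 chaperones and co-chaperones, 0.01 for the 2 lectins, 0.09 for the 5 isomerases, 0.04 for the 7 ERAD genes and 0.09 for the 7 genes of translocation and export. The 95% interval of the log2 fold change was -0.22 to 0.35 for Hspa5, -0.12 to 0.43 for Hsp90b1, -0.19 to 0.23 for Calr and -0.06 to 0.35 for Xbp1. For Ddit3 it was -0.52 to 0.47, the widest of these 5.

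**Figure D3:**
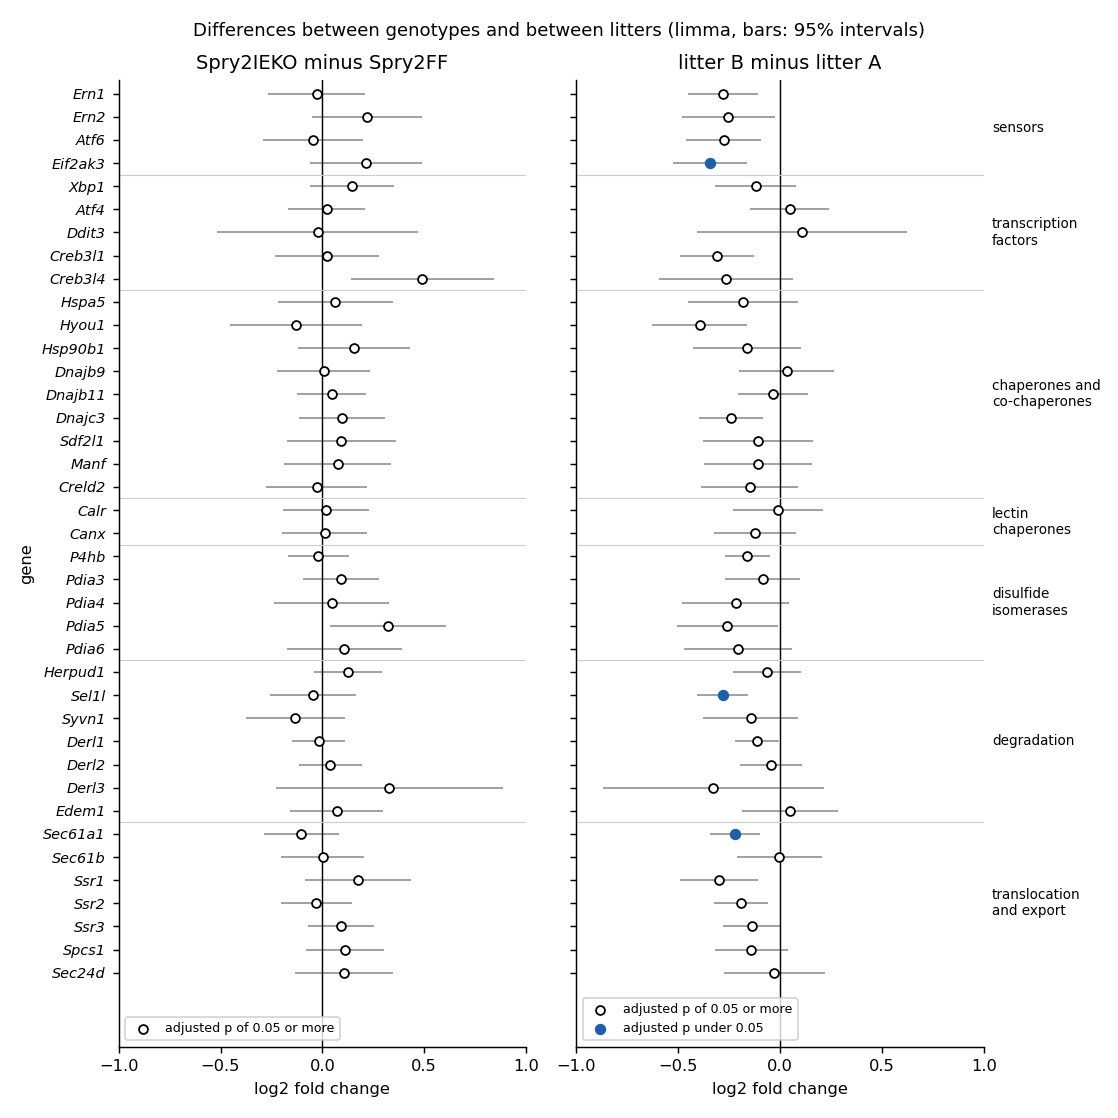
Log2 fold change of each gene between genotypes (left) and between litters (right), with 95% intervals from limma; filled points passed an adjusted p of 0.05. On the left no point is filled and the points lie on both sides of 0, and on the right 35 of 39 points lie below 0 and those of Eif2ak3, Sel1l and Sec61a1 are filled.

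Litter, which was in the design beside genotype, gave more calls. With genotype in the model, 3 of 39 genes (7.69%) passed an adjusted p of 0.05 between litter B and litter A (limma), all lower in litter B, beside 3.31% of all genes lower and 4.38% in either direction. A further 11 were lower at an unadjusted p under 0.05, which made 14 (35.9%) beside 14.8% of all genes. The log2 fold change was below 0 for 35 of the 39, with a median of -0.15 beside -0.0491 for all genes. The count of 3 ran from 0 to 11 over the alternatives, with 0 in females alone, under quantile normalization or without Spry2FF 3, Spry2FF 9 or Spry2IEKO 5, 1 without Spry2FF 2, Spry2FF 7, Spry2IEKO 4, Spry2IEKO 6 or Spry2IEKO 11, and 11 with the same total in each mouse. With the same total 9.17% of all genes were called, so the share of all genes rose as well. The median stayed between -0.23 and -0.0795.

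Sel1l (ENSMUSG00000020964, chr12:91806043-91849157), the adaptor of the ERAD ligase, ran from 34.4 to 40.8 with a median of 39.1 in litter A and from 30.2 to 33.5 with a median of 30.9 in litter B, and every mouse of litter B lay below every mouse of litter A. Its log2 fold change was -0.28 (SE 0.0579, limma adjusted p = 0.0244), with -0.34 in Spry2FF and -0.23 in Spry2IEKO mice. For Eif2ak3, the PERK gene, values ran from 16.0 to 23.1 with a median of 19.8 in litter A and from 13.5 to 18.4 with a median of 14.6 in litter B, which overlapped. Its log2 fold change was -0.34 (SE 0.0838, limma adjusted p = 0.0420), with -0.29 in Spry2FF and -0.40 in Spry2IEKO mice. Sec61a1 (ENSMUSG00000030082, chr6:88503579-88518905), the channel subunit of the translocon, ran from 84.0 to 97.2 with a median of 87.4 in litter A and from 69.0 to 84.5 with a median of 75.7 in litter B, and only Spry2FF 10 of litter B reached above the lowest mouse of litter A. Its log2 fold change was -0.22 (SE 0.0571, limma adjusted p = 0.0498), with -0.14 in Spry2FF and -0.31 in Spry2IEKO mice. Leaving out single mice in turn raised the adjusted p to at most 0.0620 for Sel1l, 0.0844 for Eif2ak3 and 0.112 for Sec61a1.

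The next in order were Hyou1 (ENSMUSG00000032115, chr9:44379490-44392369) and Creb3l1 (ENSMUSG00000027230, chr2:91982328-92024502). Hyou1 ran from 35.0 to 41.9 with a median of 35.6 in litter A and from 20.9 to 36.0 with a median of 27.2 in litter B, with a log2 fold change of -0.40 (SE 0.107, limma adjusted p = 0.0564). Creb3l1 ran from 105 to 141 with a median of 119 in litter A and from 82.1 to 106 with a median of 97.7 in litter B, with a log2 fold change of -0.31 (SE 0.0834, limma adjusted p = 0.0565). Ern1 was the other gene whose litters did not overlap, running from 12.5 to 15.3 with a median of 13.1 in litter A and from 9.76 to 11.98 with a median of 11.1 in litter B, a log2 fold change of -0.28 (SE 0.0780, limma adjusted p = 0.0625). With Sel1l that made 2 of 39 genes wholly lower in litter B (5.13%), beside 2.94% of all genes.

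The 4 sensors shared a direction, with log2 fold changes of -0.28 for Ern1, -0.25 for Ern2, -0.28 for Atf6 and -0.34 for Eif2ak3. Only Eif2ak3 passed the adjusted threshold, and all 4 had an unadjusted p under 0.05, beside 14.8% of all genes in that direction. Their sum was 85.0 to 103 in litter A and 71.1 to 88.1 in litter B. The factors downstream of PERK had 0.05 for Atf4 (95% interval -0.15 to 0.24) and 0.11 for Ddit3 (-0.41 to 0.62). Calr, Sec61b, Dnajb9, Dnajb11, Derl2, Sec24d and Edem1 were within 0.05 of 0. Median log2 fold changes by role were -0.28 for the sensors, -0.12 for the transcription factors, -0.15 for the chaperones, -0.07 for the lectins, -0.21 for the isomerases, -0.11 for the ERAD genes and -0.14 for translocation and export. All 9 genes with an ERSE were below 0 (median -0.16), as were 18 of the 22 whose promoter held none (median -0.11).

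Cell type markers differed between the litters as well. The sum of 8 fibroblast markers was 530 to 879 in litter A and 292 to 509 in litter B, without overlap, and 5 of the 8 passed limma's adjusted threshold, all lower in litter B. The sum of 12 epithelial markers was 8619 to 10771 in litter A and 9848 to 12601 in litter B. Of the 12, 8 had a log2 fold change above 0 and 4 below. Only Cdh1 of these was called, lower in litter B (-0.22, limma adjusted p = 0.0282). Of goblet cell markers, 14 of 15 had a log2 fold change below 0 with 1 of them called. Adipocyte markers were below 0 in 6 of 6 tested (median -2.15, none called). Plasma cell markers summed to 856 to 6034 in litter A and 511 to 2155 in litter B, and 12 of 14 were below 0 with none called. None of these lists held a marker listed at 0 in every mouse. The part of these cells in the litter difference of the folding genes was not tested, and litter cannot be told apart from anything else that mice of a litter shared.

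Whether the genotypes differed in the same way in both litters was tested by the interaction of genotype and litter. None of the 39 genes passed an adjusted p of 0.05 (limma), beside 0.0126% of all genes, and only Sec61b had an unadjusted p under 0.05, with a term of -0.40 (limma adjusted p = 0.998), beside 2.08% of all genes in that direction. Between genotypes its log2 fold change came to 0.20 within litter A and to -0.20 within litter B. The term was below 0 for 27 of the 39, with a median of -0.13 beside -0.0235 for all genes. It was below 0 for 8 of the 9 chaperones, both lectins and all 5 isomerases. Hspa5, for example, had a genotype difference of 0.23 (log2) within litter A against -0.11 within litter B. The mice of high and low values named above fall in these cells of the design, Spry2IEKO 4 in litter A and Spry2IEKO 8 in litter B.

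Muc2, the gel-forming mucin of goblet cells, was used as a measure of secretory load. It ran from 727 to 999.9 with a median of 857 in Spry2FF mice and from 1022 to 1502 with a median of 1227 in Spry2IEKO mice, so that every Spry2IEKO mouse lay above every Spry2FF mouse and Muc2 and genotype cannot be told apart in the pooled values (two-sided exact permutation p = 0.00216). Between litters Muc2 differed by -2.41 normalized TPM (exact permutation test, p = 0.996). No member had a slope on log2 Muc2 that passed an adjusted p of 0.05 (limma), beside 0.0252% of 15879 genes. At an unadjusted p under 0.05, 3 of 39 (7.69%) had a slope above 0, beside 4.52% of all genes, and none had one below 0, beside 3.84%. The slope was above 0 for 29 of 39, with a median of 0.13 beside 0.00671 for all genes. With sex as a covariate it was above 0 for 21 and below 0 for 18, with a median of 0.00986, and in females alone above 0 for 22 and below 0 for 17, with a median of 0.0322. With a score of 14 other goblet cell markers in place of Muc2 it was above 0 for 38 and below 0 for 1. Without Spry2IEKO 12 and Spry2FF 2, the mice farthest from the median of Muc2, it was above 0 for 35 and below 0 for 4. Leaving out single mice gave medians of 0.0733 (without Spry2FF 9) to 0.21 (without Spry2FF 13). A slope is the change in log2 level of the gene for each unit of log2 Muc2.

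Pdia5 had the lowest p, with a slope of 0.59 (SE 0.195, limma adjusted p = 0.434), a Pearson r of 0.67 (permutation test, p = 0.0184, adjusted 0.527 over all genes, n = 12) and a Spearman rho of 0.68 (permutation test, p = 0.0189, adjusted 0.626). Without Spry2IEKO 12 and Spry2FF 2, the mice farthest from the median of Muc2, r was 0.80. Within litters r was 0.85 in A and 0.65 in B, and within genotypes 0.78 in Spry2FF and 0.26 in Spry2IEKO mice. With a score of 14 other goblet cell markers in place of Muc2, Pdia5 was the single member that passed, with a slope of 0.62 (limma adjusted p = 0.0136) beside 0.674% of all genes. That fit is among the alternatives to the slope on Muc2. Over those other than leaving out a mouse, the adjusted p of Pdia5 (limma or permutation test) ran from 0.0136 to 0.990.

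Creb3l4 followed with a slope of 0.74 (SE 0.270, limma adjusted p = 0.479) and an r of 0.62 (permutation test, p = 0.0334, adjusted 0.586; rho 0.57, permutation p = 0.0602, adjusted 0.738). Its r was 0.71 without the same 2 mice, 0.76 and 0.56 within litters A and B, but 0.49 within Spry2FF and -0.31 within Spry2IEKO mice, so the relation did not hold within the knockout group. Eif2ak3 had a slope of 0.44 (SE 0.189, limma adjusted p = 0.571) and an r of 0.58 (permutation test, p = 0.0485, adjusted 0.620; rho 0.57, permutation p = 0.0585, adjusted 0.737), with 0.76 without the 2 mice. For Eif2ak3 the litters differed in level with overlapping ranges, and r within them was 0.82 in A and 0.86 in B, above the pooled value. Within genotypes it was 0.25 and 0.53.

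Xbp1 (ENSMUSG00000020484, chr11:5520659-5525893) ran from 163 to 187 with a median of 169.8 in Spry2FF and from 142 to 229 with a median of 195 in Spry2IEKO mice, and had a slope on Muc2 of 0.28 (SE 0.145, limma adjusted p = 0.637) with an r of 0.51 (permutation test, p = 0.0903, adjusted 0.667; rho 0.52, permutation p = 0.0869, adjusted 0.765). Without the same 2 mice its r was 0.45. It was 0.67 and 0.42 within litters A and B, and -0.22 within Spry2FF and 0.54 within Spry2IEKO mice, so its sign differed between the genotypes. Pdia6 (ENSMUSG00000020571, chr12:17266545-17284770), whose promoter holds an ERSE, had a slope of 0.36 (SE 0.190, limma adjusted p = 0.639) and an r of 0.48 (permutation test, p = 0.116, adjusted 0.688; rho 0.58, permutation p = 0.0525, adjusted 0.726). Litter A alone gave 0.93 and litter B alone 0.38, Spry2FF mice alone 0.68 and Spry2IEKO mice alone 0.49, and r was 0.58 without those 2 mice. Hspa5 itself had a slope of 0.16 (SE 0.205, limma adjusted p = 0.840), and 10 members had slopes below 0, from -0.16 for Atf6 to -0.01 for Canx, none of which passed the test. Relations with Muc2 were computed for 15879 genes.

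**Figure D4:**
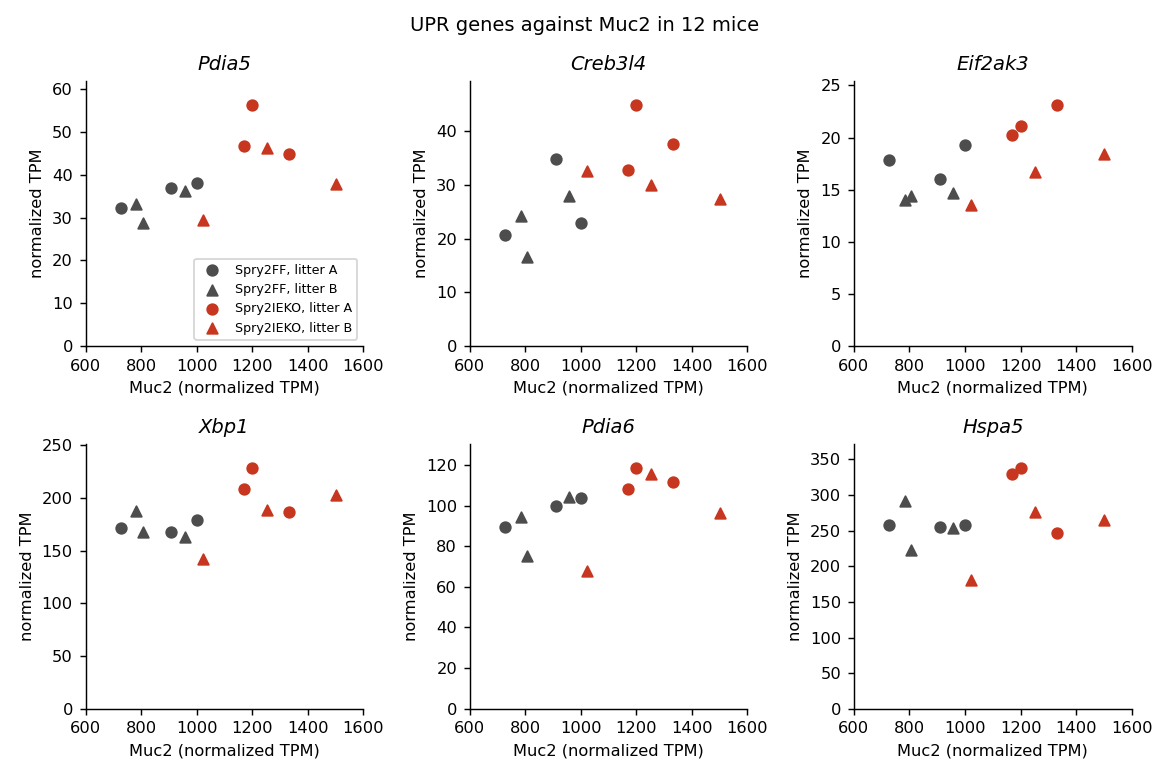
Level of 6 genes against Muc2, both in normalized TPM, with 1 point for each of the 12 mice; grey is Spry2FF, red Spry2IEKO, circles litter A and triangles litter B. Spry2IEKO mice lie to the right of all Spry2FF mice in Muc2, and Pdia5, Creb3l4 and Eif2ak3 reach their highest values among Spry2IEKO mice of litter A.

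The members were next compared with each other. After the values had been seen, each was correlated with Hspa5, the central UPR target, over the 12 mice. Of 38 members, 36 had an r above 0 and 20 an unadjusted permutation p under 0.05 in that direction, beside 7.25% of 15879 genes. The median r was 0.62 beside 0.0633 for all genes, 0.56 in litter A, 0.60 in litter B, and 0.46 without Spry2IEKO 8 and Spry2IEKO 4, the mice farthest from the median of Hspa5. No gene passed after adjustment over all genes, a step limited by the smallest p that 100000 draws of the permutation test can give, 1e-05. In Spry2FF mice Hspa5 ran from 223 to 292 with a median of 256 and in Spry2IEKO mice from 181 to 338 with a median of 270.4. Of the marker genes, those of plasma cells had an r with Hspa5 above 0 in 11 of 13 (median 0.51; Igkc 0.82, Igha 0.81), as did adipocyte markers in 6 of 6 (median 0.64) and goblet cell markers in 15 of 15 (median 0.48), while smooth muscle markers were below 0 in 10 of 10 (median -0.57). Their part in the relations among the folding genes was not tested. All values of a mouse share 1 library and 1 scaling.

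Pdia4 was nearest to Hspa5, with r = 0.96 (permutation test, p = 1e-05, the smallest that 100000 draws can give, adjusted 0.0529), rho = 0.83 (permutation p = 0.00140, adjusted 0.331) and r = 0.89 without those 2 mice. Hsp90b1 (0.92), Manf (0.92), Xbp1 (0.89), Pdia3 (0.86), Creld2 (0.85), Dnajc3 (0.82) and Pdia6 (0.80) followed in r. These are chaperones, isomerases and the factor XBP1. At the other end stood 3 of the 4 sensors, Ern2 (-0.06), Atf6 (-0.01) and Ern1 (0.19), with Derl1 (0.09) and Herpud1 (0.11). The r of Atf6 was 0.35 among mice of litter A and -0.83 among those of litter B. The 8 other genes with an ERSE all had an r above 0 (median 0.78, lowest 0.41 for Canx), as did all 22 whose promoter held none (median 0.62, lowest 0.11).

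**Figure D5:**
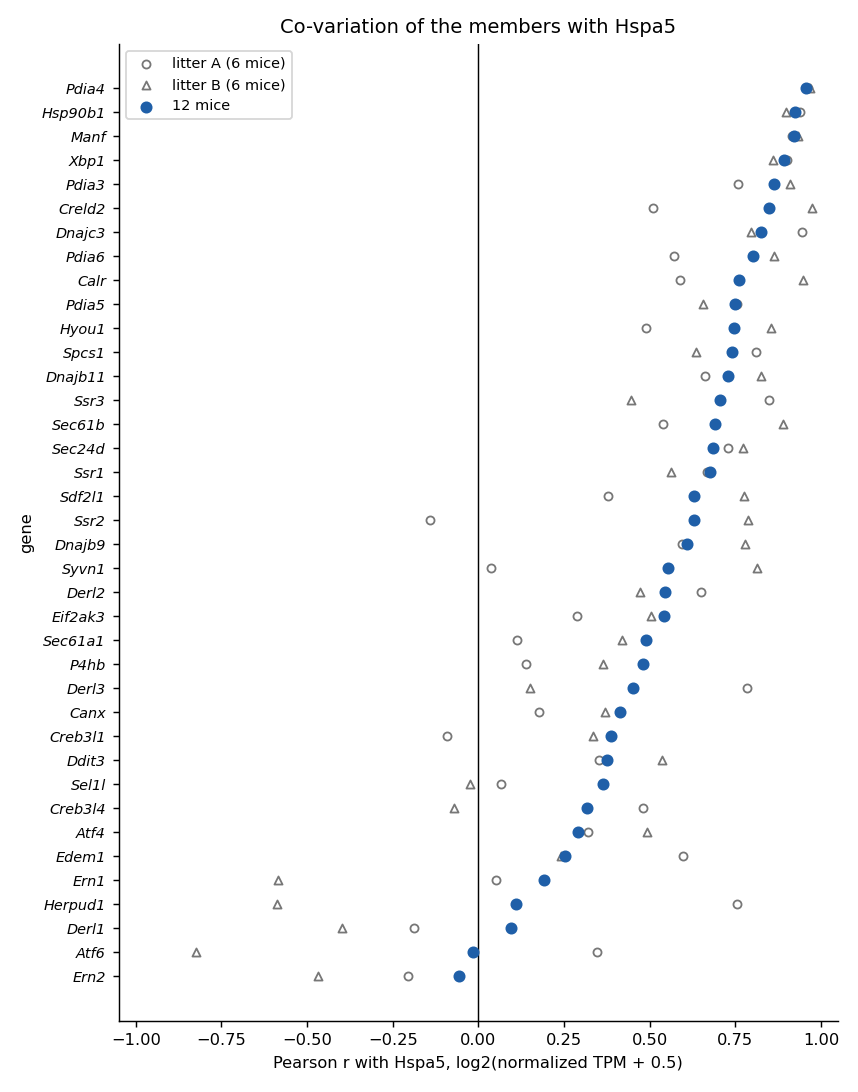
Pearson r of each of 38 genes with Hspa5 on the log2 scale, over 12 mice (filled points) and within litter A and litter B (open circles and triangles, 6 mice each), sorted by the value over 12 mice. Pdia4, Hsp90b1, Manf and Xbp1 have an r of at least 0.86 in both litters, while the sensors Ern1, Ern2 and Atf6 lie below 0 in litter B.

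Other genes of the same pathways were counted from lists of 166 genes, of which 159 were tested. Between genotypes none of the 159 passed. At an unadjusted p under 0.05 there were 10 (6.29%, beside 6.18% of all genes), 8 of them higher in Spry2IEKO mice. The lowest p belonged to Agr2, an isomerase needed for MUC2 folding, with a log2 fold change of 0.44 (adjusted p = 0.656 by limma), then Selenom, a selenoprotein of the ER, with -0.23 (adjusted p = 0.694 by limma) and Bet1, a SNARE of ER-to-Golgi traffic, with 0.30 (adjusted p = 0.733 by limma). Agr2 was at 1509.6 ± 154 (SD, n = 6) in Spry2FF and 2074 ± 400.1 (SD, n = 6) in Spry2IEKO mice, above every member in level. Its slope on Muc2 was 0.87 (adjusted p = 0.0957 by limma), followed by Fkbp11 with 0.84 (adjusted p = 0.345 by limma) and Bet1 with 0.54 (adjusted p = 0.375 by limma), and none of the 159 passed that test. At an unadjusted p under 0.05 there were 16 (10.1%, beside 8.35% of all genes), 14 with a slope above 0.

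Between litters 12 of the 159 passed (7.55%, beside 4.38% of all genes), 11 of them lower in litter B. The cargo receptor Surf4 had a log2 fold change of -0.30 (adjusted p = 0.0123 by limma), the glucosyltransferase Uggt1, which checks the folding of glycoproteins, -0.37 (adjusted p = 0.0148 by limma) and the thioredoxin-like Txndc11 -0.27 (adjusted p = 0.0223 by limma). Surf4 was at 105 ± 4.27 (SD, n = 6) in litter A and 85.5 ± 6.00 (SD, n = 6) in litter B. By list, those called were 4 of 23 in N-glycosylation and glucose trimming, 3 of 24 in ERAD, 2 of 30 in COPII and export, 1 of 14 among sensor processing and 1 of 32 in oxidative folding, all lower, and 1 of 19 in translocation, which was higher. Of 17 PERK and ATF4 targets none passed between genotypes, between litters or for Muc2, with medians of 0.13 between genotypes, -0.11 between litters and a slope of 0.16 on Muc2. The median over all 159 was 0.02 between genotypes, -0.07 between litters and 0.04 for the slope on Muc2.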

How the data were processed

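RNA from full-thickness distal colon of 12 mice, 6 Spry2IEKO and 6 Spry2FF in 2 litters, was sequenced by the authors with a stranded mRNA kit. Reads were pseudoaligned with kallisto and handled with sleuth, and the labels name mm10. The deposited table holds a signal per transcript, which is TPM that the authors scaled again between mice, together with columns of the authors' own test results (p and q values), which were not used. Reads per mouse cannot be had from these values, so no count test or counting interval was possible, and the number of mice limits the precision.

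Of 113974 entries, 781 repeats were dropped, and the 113193 transcripts left were summed to 35241 gene symbols (178 transcripts for the 39 genes). In 24 entries a spreadsheet had turned the name into a date, which covers 28 genes, none of them described here. Names without a gene held at most 0.0608% of a mouse's total. Each mouse had 18655 to 19753 symbols above 0. Levels were taken as log2(value + 0.5), and the 15880 genes whose mean reached 0.5 were tested two-sided with limma (3.58.1, trend, R 4.3.3) and Benjamini-Hochberg adjustment. Genotype was fitted alone, litter with genotype in the model, the interaction of the pair, and the slope on log2 Muc2. Exact permutation served for Spry2, Muc2 and each member, and 100000 permutations for correlations (SciPy 1.17.1, NumPy 2.4.6, pandas 2.3.3, Python 3.11.15; figures with matplotlib 3.10.9). In simulated data with 200 of 15880 genes changed by 1 on the log2 scale, 72% were recovered for genotype, with 4.64% of calls false, and 71.5% for litter, with 5.3% false. With a slope of 2 on Muc2, 82% were recovered, with 6.82% false. The log2 fold changes of the 39 genes were smaller, from -0.13 to 0.49 between genotypes and from -0.40 to 0.11 between litters. Their slopes on Muc2 ran from -0.16 to 0.74. Recovery at these sizes was not tested.

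The 39 genes, the pathway lists and the marker lists (goblet, plasma, B, epithelial, absorptive, enteroendocrine, tuft, smooth muscle, fibroblast, adipocyte and skeletal muscle cells) were chosen with earlier results of these data known. Beyond counts and medians, the members named were the 5 with the lowest p in each comparison, and for other pathway genes the 3 with the lowest p. Positions are those of GENCODE M21 on GRCm38 and promoters those of RefSeq on GRCm38.p6. The alternatives were other pseudocounts (0.1 and 1), filters (a mean of at least 0.1 or 2, or none), normalizations, covariates, subsets and reference measures, and leaving out each mouse. Mice of a group are separate animals.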

Additional observations from a re-analysis of the deposited data

Results flagged for a closer look

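In 164 groups of 6 mice, 4 values stood further from the rest of their group than Dixon's 95% limit allows, where chance flags about 1 group in 20. Creld2 was at 22.0 in Spry2IEKO 8, against 33.2 to 37.7 in the other Spry2IEKO mice. The sum of the 39 genes was 3639 in Spry2FF 9, against 4053 to 4245 in the other Spry2FF mice. Hyou1 was at 41.9 in Spry2IEKO 5, against 35.0 to 37.0 in the other mice of litter A. Spcs1 was at 204 in Spry2IEKO 4, against 165 to 177 in the other mice of litter A. No member differed between genotypes without overlap in opposite directions in the 2 litters.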

How the results depend on the processing

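The number of members called between genotypes was 0 under all 26 alternatives, while their median log2 fold change ran from -0.00754 with sex as a covariate to 0.11. Between litters, 3 members were called, against 1 with a mean of at least 0.1, 1 without a filter, 5 with a mean of at least 2 (38 genes, without Derl3), 6 with sex as a covariate, 0 in females alone, 0 under quantile normalization, 11 with the same total in each mouse, 1 without the trend in limma and 1 without the genotype term. Of all genes, 4.38% were called in the main fit, 2.64% with a mean of at least 0.1, 1.7% without a filter and 6.26% with a mean of at least 2. The share was 4.82% with sex as a covariate, 3% under quantile normalization and 9.17% with the same total. It was 3.46% without the trend and 4.14% without the genotype term. Leaving out single mice gave 0 to 4 members, beside 1.12% to 6.03% of all genes. Females alone left 8 mice, and 1 gene of all was called there. The cause of the other shifts was not tested. The median of all genes between litters was -0.0491, and -0.12 with the same total and 0.00949 under quantile normalization, beside medians of the members from -0.23 to -0.0795. Sel1l lost its call in 2 of 11 alternatives and without 5 of 12 mice, Eif2ak3 in 6 and without 9, and Sec61a1 in 7 and without 10, with the direction kept each time. For the slope on Muc2, no member was called except 1, Pdia5, with the goblet cell list without Muc2 as the load. No paired analysis was possible because the genotypes share no replicate numbers. With litter as a covariate in place of such a block, 0 members and 6 of all genes were called between genotypes. With 6 mice a group, no depth of each mouse in the values and whole tissue, small differences in single cell types were not detectable.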

Other observations

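The split of the members by their promoters, made after the motif search, is given here as a description. Between genotypes the 9 genes with an ERSE had a median log2 fold change of 0.06 and the 22 genes whose promoter held none 0.08. For the slope on Muc2 the medians were 0.16 and 0.19. The interaction of genotype and litter was below 0 in 8 of the 9 (median -0.24) and in 13 of the 22 (median -0.12).

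Among other pathway genes, the 17 PERK and ATF4 targets had an interaction term below 0 in 14, with a median of -0.37 beside -0.0235 for all genes. At an unadjusted p under 0.05, 2 of the 17 were lower, beside 2.08% of all genes, and none passed limma's adjusted threshold. Tuft cell markers, which are not part of the folding machinery, had a log2 fold change above 0 between genotypes in 7 of 7 tested (median 0.50, none called), and B cell markers in 8 of 8 (median 1.22, none called). Ddit3 without its second Ensembl record had a log2 fold change of 0.05 between genotypes and 0.07 between litters, against -0.02 and 0.11 with it.

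Epithelial markers were above 0 between genotypes in 2 of 12 tested and absorptive colonocyte markers in 2 of 10, enteroendocrine markers in 7 of 9, smooth muscle markers in 1 of 10, fibroblast markers in 6 of 8, adipocyte markers in 6 of 6 and skeletal muscle markers in 1 of 5, and none of these were called. Of the fibroblast markers, 8 of 8 had an r with Hspa5 above 0 (median 0.33).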
